A study of Mus musculus with 6 samples.

Results

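Glutathione S-transferases are enzymes that join glutathione, a small sulfur-containing peptide of the cell, to reactive compounds, so that drugs, toxins and products of lipid peroxidation can be carried out of the cell. Liver is rich in them. The cytosolic enzymes work as pairs of subunits and fall into classes by sequence, among them Alpha (Gsta genes), Mu (Gstm), Pi (Gstp) and Theta (Gstt). In mouse liver several of these genes respond to the transcription factor NRF2, encoded by Nfe2l2, and some to the xenobiotic receptors CAR and PXR.

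The 10 genes described here are Gsta1, Gsta2, Gsta3, Gsta4, Gstm1, Gstm2, Gstm3, Gstm6, Gstp1 and Gstt1, chosen by name as members of this enzyme family and matched by a single gene symbol in the platform annotation. They were measured in liver RNA of 3 mice homozygous for a mutation of the RNA helicase gene Dhx32 (Dhx32-/-) and of 3 control mice whose label reads wild type. All mice were male and 6 to 8 weeks old, and each liver was hybridised to 1 Affymetrix exon array, which carries separate probe sets for the exons of a gene. The labels do not say whether control mice were littermates or which change in Dhx32 the mutants carry.

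Of the 10 genes, 8 had a gene value, which is the mean log2 signal over at least 2 probe sets with a group mean of 3 or more, among 15045 genes with such a value in all. Gsta2 had 1 probe set and is given by it. Gsta1 had no probe set under its symbol alone and is not analysed here. The members had 63 probe sets, of which 62 passed the minimum of 3. The probe set that did not pass belongs to Gstt1. Each gene value below is on the log2 scale, and levels of different genes are not compared, since probe sets differ in how well they bind.

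Dhx32 itself averaged 6.66 ± 0.35 in mutants and 8.58 ± 0.29 in controls (SD, n = 3 each), with every mutant below every control (adjusted p = 0.183 in limma). Array medians ran from 6.73 to 6.95. Mutant replicate 1 stood apart from the other 5 arrays, with correlations of 0.935 to 0.940 to them over all probe sets, so differences are also given without it. Alb, the gene of serum albumin and a hepatocyte marker, read 13.64 to 14.05 on the 6 arrays. Fewer cells of a type and less RNA per cell cannot be told apart in whole tissue.

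Because the Alpha-class and Mu-class genes carry most of the values below, the 250 bases before the annotated start are shown for 4 of them. Gsta3 was chosen for its match to the core of the antioxidant response element, the DNA motif to which NRF2 binds, and Gstm6, Gstm3 and Gstm2 because they share the low value in 1 mutant liver described below. The sequences are from RefSeq (GRCm38.p6) and run 5′ to 3′ on the strand of the gene. Capitals mark matches, on either strand, to TGACNNNGC or to CCAAT, the box to which the factor NF-Y binds. No capitals means that neither was found.
Gsta3, chr1:21240335-21240584, plus strand: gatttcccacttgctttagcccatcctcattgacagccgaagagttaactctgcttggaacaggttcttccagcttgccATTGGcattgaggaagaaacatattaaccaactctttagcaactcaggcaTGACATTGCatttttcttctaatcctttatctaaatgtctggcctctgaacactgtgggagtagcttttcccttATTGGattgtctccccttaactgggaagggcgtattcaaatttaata
Gstm6, chr3:107953467-107953716, minus strand: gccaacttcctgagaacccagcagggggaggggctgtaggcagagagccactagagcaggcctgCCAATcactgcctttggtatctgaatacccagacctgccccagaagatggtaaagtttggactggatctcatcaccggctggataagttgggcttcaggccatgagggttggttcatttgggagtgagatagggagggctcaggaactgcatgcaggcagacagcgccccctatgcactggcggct
Gstm3, chr3:107969175-107969424, minus strand: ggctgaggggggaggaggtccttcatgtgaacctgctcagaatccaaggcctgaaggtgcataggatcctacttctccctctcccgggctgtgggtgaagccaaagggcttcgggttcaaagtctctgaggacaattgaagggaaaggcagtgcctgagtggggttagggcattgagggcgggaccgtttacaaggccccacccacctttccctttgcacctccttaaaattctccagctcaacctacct
Gstm2, chr3:107986421-107986670, minus strand: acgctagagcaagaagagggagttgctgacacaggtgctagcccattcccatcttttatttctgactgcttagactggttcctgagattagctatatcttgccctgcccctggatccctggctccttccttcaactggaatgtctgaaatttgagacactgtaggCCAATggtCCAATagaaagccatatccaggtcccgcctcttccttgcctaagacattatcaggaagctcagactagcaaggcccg

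Of the 10 members, 9 were in the promoter table. Among these 9, Gsta3 alone held TGACNNNGC, as TGACATTGC at 121 to 113 bases before the start, and 10.2% of all 32851 windows of this length in the table held it. CCAAT was found in 6 of the 9, against 33.8% of all windows. Where the table gives a gene several starts, the one farthest upstream was taken. Aligned over the 250 bases, the windows of Gstm6, Gstm3 and Gstm2 were 48.7% to 51.6% identical to each other, within the 43.1% to 54.8% found for other pairs of members. Gsta1 and Gsta2, at 71.4%, were the one pair outside that range.

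No member passed the threshold between mutant and control livers. In limma, with p-values adjusted over all 15045 genes, 0 of the 8 members reached an adjusted p under 0.05 (adjusted p = 0.943 to 0.967), and 1 of the 8, Gsta4, had an unadjusted p under 0.05. Across all genes 0.00665% passed the adjusted threshold and 4.21% had an unadjusted p under 0.05, 2.20% with a lower mean in mutants. The gene mean was lower in mutants for 6 members and higher for 2, with a median difference of -0.24, mutant minus control, against -0.01 over all genes, of which 52.5% were lower. Without mutant replicate 1 the median over the members was -0.03. The widest 95% interval among the members, that of Gstm3, ran from -1.23 to 0.67.

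**Figure D1:**
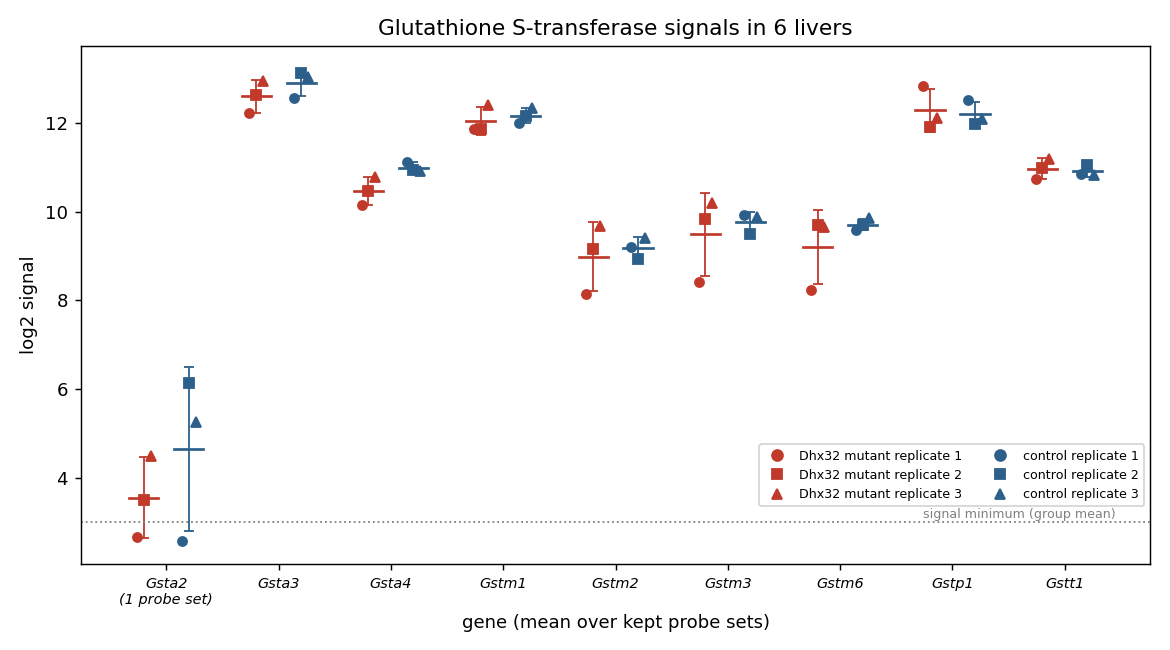
Log2 signal of each measured member in every liver, with Dhx32 mutants (red) left of controls (blue). Marker shapes give the replicate number, horizontal bars the group mean and vertical bars the SD (n = 3). Mutant replicate 1 is the lowest point of 7 of the 8 genes with a gene value and the highest point of Gstp1.

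The Alpha-class enzymes come first. Gsta4, which is known for conjugating hydroxynonenal, an aldehyde from lipid peroxidation, read 10.15, 10.47 and 10.79 in the 3 mutants, against 11.13, 10.93 and 10.92 in the 3 controls. Every mutant thus lay below every control, with a gap of 0.13 between the groups. It was the only one of the 8 members whose groups did not overlap, where 4.32% of all genes had every mutant below every control and 9.47% did not overlap in either direction. The difference was -0.53 (SE 0.19), a signal 1.44-fold lower in mutants, which did not pass in limma (unadjusted p = 0.0244, adjusted p = 0.943). It was -0.37 without mutant replicate 1 and -0.69 without mutant replicate 3, and lower in mutants with any single array left out.

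The 7 probe sets of Gsta4 were lower in mutants by similar amounts, with differences of -0.65 to -0.41. In 4 of the 7 every mutant lay below every control, where 4.44% of all probe sets did. These probe sets share the same 6 livers and are not separate comparisons. Probe set 4876136 is an example, at 11.20, 11.08 and 11.43 in mutants and 11.77, 11.71 and 11.70 in controls. Probe set 5371205 differed by a similar amount mostly through 1 liver, with 10.55, 11.59 and 11.96 in mutants and 12.00, 11.97 and 11.87 in controls. There mutant replicate 2 also lay below every control, and mutant replicate 3 did not.

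Gsta3, which in mice conjugates the epoxide of aflatoxin, read 12.22, 12.63 and 12.95 in mutants, against 12.57, 13.12 and 13.04 in controls. The groups overlapped, since control replicate 1 lay below mutant replicates 2 and 3. The difference was -0.31 (SE 0.23; adjusted p = 0.943 in limma), and -0.12 without mutant replicate 1. All 6 of its probe sets had a lower mean in mutants, from -0.55 to -0.10.

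Gsta2, an Alpha-class gene that NRF2 activators induce in mouse liver, was represented by probe set 4780653 alone. It read 2.67, 3.49 and 4.49 in mutants, against 2.58, 6.14 and 5.25 in controls. Mutant replicate 1 and control replicate 1 both lay under the minimum of 3. The difference was -1.11 (SE 0.86), with an adjusted p = 0.994 over 191663 probe sets in limma.

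The lowest arrays of Gsta2 and Gsta3 were the same 3 livers, control replicate 1 and mutant replicates 1 and 2. Dbp, an output factor of the circadian clock that drives detoxification genes, was low in the same livers, at 6.90, 6.91 and 8.74 in mutants against 7.29, 8.93 and 8.71 in controls. Among the 8 gene values, those of Gsta3 and Gstm1 had these 3 livers lowest, 2 of 8, and 17.2% of all genes did. The part of the clock in these values was not tested.

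Of the Mu class, 4 members were measured, and 3 of them shared 1 feature, a low value in mutant replicate 1. Gstm6 read 8.24, 9.71 and 9.65 in mutants, against 9.59, 9.69 and 9.85 in controls. The other 2 mutants were thus within the range of the controls, and mutant replicate 1 minus the control mean was -1.47. The difference was -0.51 (SE 0.37; adjusted p = 0.943 in limma), and -0.03 (SE 0.15) without that array. All 6 of its probe sets were lowest in mutant replicate 1, with deviations from their control means of -1.95 to -1.01.

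Gstm3 encodes another Mu-class subunit and read 8.42, 9.84 and 10.20 in mutants, against 9.92, 9.50 and 9.89 in controls. Here mutant replicate 3 was the highest array and mutant replicate 1 the lowest, at -1.35 from the control mean. The difference was -0.28 (SE 0.41; adjusted p = 0.948 in limma), and 0.25 without mutant replicate 1, which turned its direction. Of its 11 probe sets 10 were lowest in mutant replicate 1. The exception, probe set 4973447, read 8.21, 7.59 and 8.81 in mutants and 7.81, 7.64 and 8.65 in controls. Probe set 4354376, 1 of the 10, read 12.92, 13.35 and 13.51 in mutants and 13.28, 13.28 and 13.46 in controls. A probe set of Gstm1, 4891972, read nearly the same, at 12.91, 13.33 and 13.56 in mutants and 13.28, 13.24 and 13.49 in controls. Whether probe set 4354376 binds Gstm1 transcripts was not tested.

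Gstm2, a further Mu-class subunit, also had mutant replicate 1 lowest and mutant replicate 3 highest, at 8.15, 9.15 and 9.67 in mutants against 9.20, 8.93 and 9.41 in controls. The mutants lay on both sides of the controls. The difference was -0.19 (SE 0.35; adjusted p = 0.957 in limma), and 0.23 without mutant replicate 1, again turned. Part of it comes from the dim probe set 5454628, which differed by -1.14. That probe set passed the minimum of 3 only through the controls, with a mean of 3.60 against 2.46 in mutants. With a signal minimum of 5 the difference of Gstm2 was -0.09. Of its 10 probe sets 8 were lowest in that array. Probe set 4381832, 1 of the exceptions, read 13.42, 12.96 and 13.64 in mutants and 13.32, 13.43 and 13.54 in controls, with mutant replicate 2 lowest. A probe set of Gstm1, 5544162, had nearly the same pattern, at 13.43, 12.96 and 13.73 in mutants and 13.30, 13.44 and 13.58 in controls. Whether probe set 4381832 binds Gstm1 transcripts was not tested.

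Gstm1, a major Mu-class subunit of mouse liver, read 11.86, 11.87 and 12.41 in mutants, against 12.00, 12.15 and 12.35 in controls. The groups overlapped and mutant replicate 1 lay at -0.31 from the control mean. The difference was -0.12 (SE 0.20; adjusted p = 0.951 in limma), and -0.03 without mutant replicate 1, mutant replicate 2 or control replicate 3. Its 9 probe sets did not rank the mutants alike. Mutant replicate 2 minus mutant replicate 1 was -0.54 to -0.45 in 4 of them and 0.05 to 0.71 in the other 5.

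**Figure D2:**
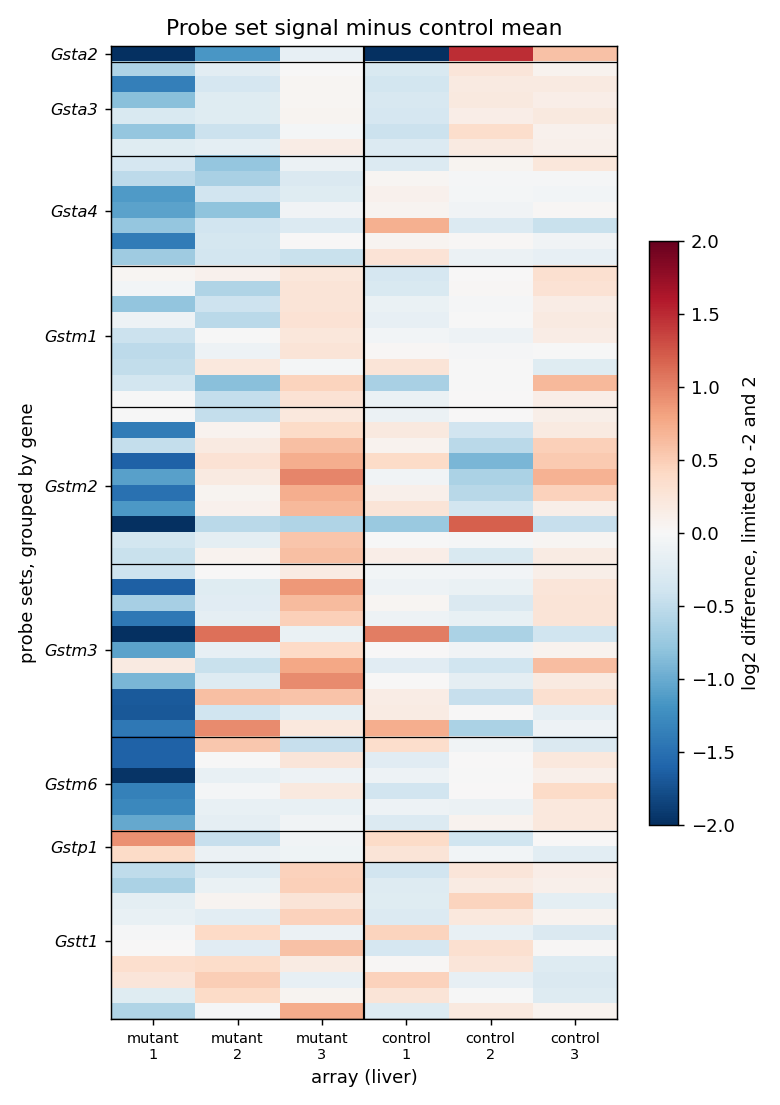
Signal of each of the 62 kept probe sets minus its mean over the controls (colour, log2 scale, limited to -2 and 2), in rows grouped by gene, with the mutant arrays left of the control arrays. Mutant replicate 1 is the lowest array in 40 of the 62 rows, most of them in Gstm2, Gstm3 and Gstm6.

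In the RefSeq annotation the Mu-class genes lie side by side on chromosome 3, in the order Gstm5, Gstm7, Gstm6, Gstm3, Gstm2, Gstm1, Gstm4. Along this order mutant replicate 1 minus the control mean was 0.03 in Gstm5, -0.56 in Gstm7, -1.47 in Gstm6, -1.35 in Gstm3, -1.03 in Gstm2, -0.31 in Gstm1 and -0.50 in Gstm4. Among the 7 Mu-class genes its lowest values were thus in 3 adjacent ones, in a run chosen after the values were seen. The nearest measured genes beyond the cluster stood on opposite sides of their control means in the same liver, 4933431E20Rik, beyond Gstm5, at -0.95 and Ampd2, beyond Gstm4, at 0.47. Over all genes, 5% lay at or below -0.93 on that array. Gstm genes are similar in sequence, and a probe set may bind transcripts of several of them. A probe set annotated to both Gstm6 and Gstm3, which enters neither gene value, differed by -0.39 (SE 0.46). It was lowest in mutant replicate 1, at -1.45 from its control mean.

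**Figure D3:**
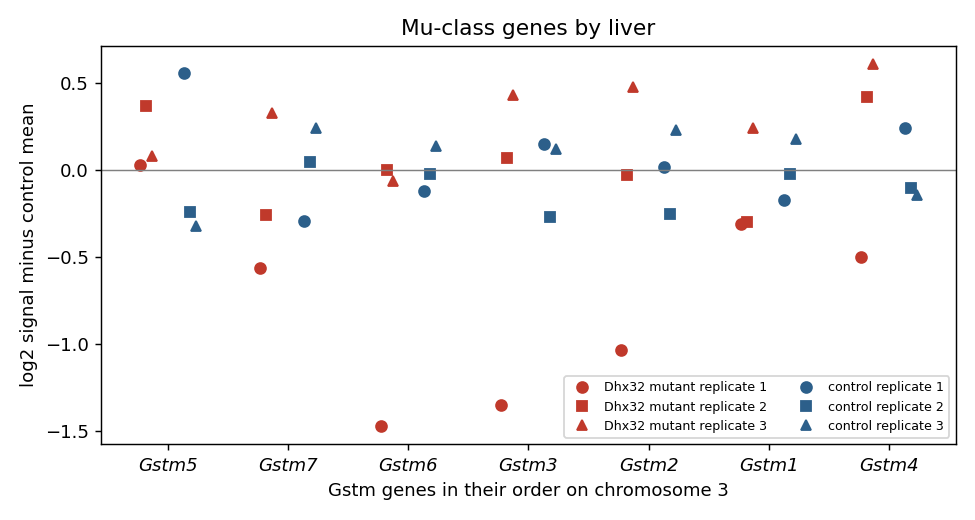
Log2 signal of the 7 Mu-class genes minus the control mean, in their order along chromosome 3, with Dhx32 mutants (red) left of controls (blue) and shapes for replicates. Mutant replicate 1 lies at -1.47, -1.35 and -1.03 in Gstm6, Gstm3 and Gstm2, where the other livers lie between -0.27 and 0.48.

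Gstp1, the Pi-class enzyme and a major transferase of male mouse liver, was instead highest in mutant replicate 1. It read 12.84, 11.91 and 12.11 in mutants, against 12.52, 11.97 and 12.10 in controls. Replicate 1 of each group was the highest array of that group, and the other 4 livers lay between 11.91 and 12.11. The difference was 0.09 (SE 0.26; adjusted p = 0.967 in limma), and -0.18 without mutant replicate 1. Its value rests on 2 probe sets, since 6 further probe sets are annotated to both Gstp1 and its close copy Gstp2. Those 6 had a higher mean in mutants by 0.01 to 0.54, and none passed (adjusted p = 0.994 for the smallest p, limma over all probe sets). Their signal cannot be assigned to 1 of the 2 genes. Nor were all of the 6 highest in mutant replicate 1. Probe set 4988674 was, at 13.86 against 13.76 in control replicate 1. Probe set 4315276 was highest in control replicate 1, at 12.79 against 12.56 in mutant replicate 1. Gstp2 also has a gene value of its own, from probe sets under its symbol alone, which differed by 0.18 (SE 0.24). That value was highest in control replicate 1, at 7.17 against 6.94 in mutant replicate 1.

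Gstt1, a Theta-class enzyme that acts on small halogenated compounds, read 10.73, 10.99 and 11.20 in mutants, against 10.85, 11.06 and 10.82 in controls. The groups overlapped throughout, with a difference of 0.07 (SE 0.17; adjusted p = 0.962 in limma). Of its 10 kept probe sets 8 had a higher mean in mutants and 2 a lower one, from -0.10 to 0.29. Its neighbour Gstt3 is described with the other transferases.

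**Figure D4:**
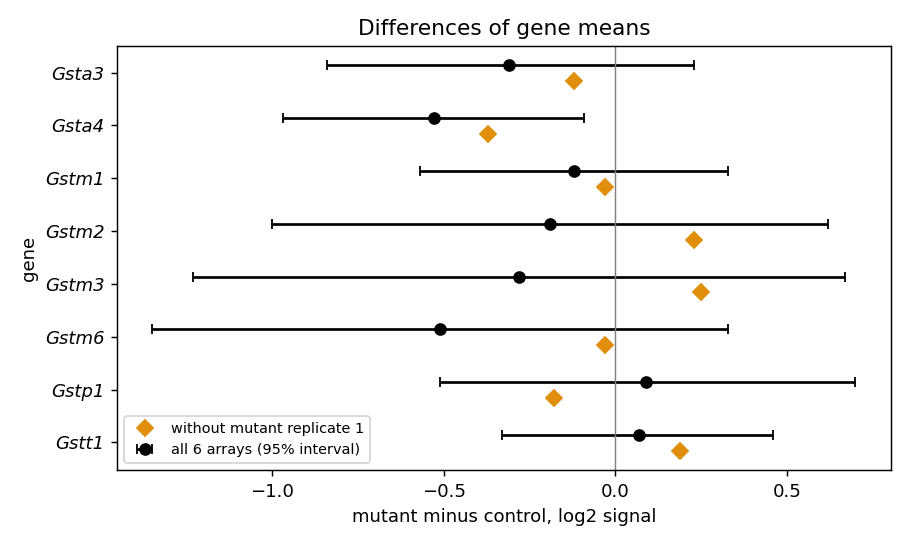
Difference of gene means, mutant minus control, in log2 signal (points, with limma's 95% interval over all 6 arrays) and the same difference without mutant replicate 1 (diamonds). Gsta4 is the one member whose interval, -0.97 to -0.09, lies below 0, and its adjusted p over all genes is 0.943.

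Single probe sets and exon usage gave no calls either. Of the 62 kept probe sets 46 had a lower mean in mutants and 16 a higher one, with a median difference of -0.15 against -0.03 over all 191663 probe sets. In limma 0 of the 62 passed (smallest adjusted p = 0.994) and 0 had an unadjusted p under 0.05, where 0% and 4.07% of all probe sets did. Every mutant lay below every control in 6 of the 62, of which 4 belong to Gsta4, 1 to Gstm3 and 1 to Gstm6, and above every control in 0, against 4.44% and 4.01% of all probe sets. Without mutant replicate 1 the number with a lower mean was 27 of 62.

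Exon usage, which sets each probe set against the other probe sets of that gene, could be tested in the 7 members with at least 3 kept probe sets. The diffSplice F-test of limma passed 0 of these 7, with unadjusted p-values of 0.923 to 0.999 (adjusted p = 1 for each), and the Simes test also passed 0. Across all 14310 genes tested, 0.210% passed the F-test.

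Mutant replicate 1 was the lowest of the 6 arrays in 7 of the 8 members, and in 32.8% of all genes. Averaged over the 8 members, the mutants stood at -0.65, -0.16 and 0.14 from the control mean and the controls at -0.01, -0.06 and 0.07. Over all genes the medians of the 3 mutants were -0.06, -0.04 and 0.07. Mutants 2 and 3 thus stood on opposite sides of the controls.

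Acute phase genes, which the liver makes in inflammation, were highest in the same liver. All 8 measured genes of this list had a higher mean in mutants. The list averaged 13.22, 11.80 and 11.18 in mutants, against 10.55, 10.25 and 10.46 in controls. Lcn2, an iron-sequestering protein of this response, read 13.57, 11.19 and 10.14 in mutants, against 6.88, 7.11 and 7.93 in controls (adjusted p = 0.547 in limma). Among the mutants, the order of this list was the reverse of the order of the members' average. Among the controls it was not, since both averages were lowest in control replicate 2. The part of this list in the transferase values was not tested.

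The average levels of the neutrophil, macrophage and bile duct marker lists were also highest in that liver, though not every marker was. Highest there were 5 of 7 neutrophil markers, 4 of 7 macrophage markers and 6 of 8 bile duct markers. The share of all genes highest in that liver is not given here. The 8 bile duct markers averaged 6.38, 5.87 and 6.06 in mutants, against 5.99, 5.87 and 5.80 in controls. The 7 measured neutrophil markers averaged 5.56, 4.89 and 4.77 in mutants, against 4.90, 4.70 and 4.98 in controls. The 7 macrophage markers averaged 8.65, 7.86 and 7.97 in mutants, against 7.77, 8.31 and 8.36 in controls. The stellate cell, endothelium and adipocyte lists were not highest there. The 7 stellate cell markers averaged 6.76, 6.99 and 7.22 in mutants, against 7.13, 7.33 and 7.18 in controls. For the 7 endothelial markers these were 8.70, 8.27 and 9.08 against 8.58, 8.91 and 9.12. For the 6 adipocyte markers they were 5.60, 5.61 and 5.85 against 5.38, 4.97 and 5.34. The average of the 7 hepatocyte markers stood between -0.09 and 0.12 from the control mean on the 6 arrays. Single hepatocyte markers ranged more widely in mutant replicate 1, from -0.82 for Tdo2, a tryptophan-degrading enzyme, to 0.47 for the transcription factor Hnf4a. Lists by liver zone were also averaged as distances from the control mean. The 8 pericentral genes, of hepatocytes near the central vein, stood at -0.47, -0.02 and 0.23 in mutants and -0.21, 0.02 and 0.19 in controls. The 5 periportal genes, of hepatocytes near the portal vein, stood at -0.33, -0.32 and 0.16 against -0.17, 0.11 and 0.07. The part of any of these lists in the transferase values was not tested.

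Among 18 other glutathione transferases and related membrane enzymes, 8 had a higher mean in mutants and 10 a lower one, with a median difference of -0.01, and 0 passed in limma (1 with an unadjusted p under 0.05). Hpgds, a prostaglandin D synthase of the Sigma class, was dim and read 3.88, 4.13 and 4.50 in mutants, against 4.59, 5.03 and 4.60 in controls. Every mutant lay below every control, with a difference of -0.57 (SE 0.21; adjusted p = 0.943). Gstt3 read 6.81, 7.92 and 8.47 in mutants, against 7.71, 8.84 and 9.24 in controls, a difference of -0.87 (SE 0.49; adjusted p = 0.943) with overlapping groups, and of -0.41 without mutant replicate 1. Alox5ap, a membrane protein of leukotriene synthesis, differed by 0.43 (SE 0.33), and by 0.04 without mutant replicate 1. Gstz1, which acts in tyrosine breakdown, differed by -0.20 (SE 0.18), and by -0.04 without that array.

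Of 20 measured genes that supply and recycle glutathione, 13 had a higher mean in mutants and 7 a lower one, with a median of 0.05, and 0 passed in limma (2 with an unadjusted p under 0.05). Glrx, glutaredoxin, which removes glutathione from proteins, read 9.75, 9.43 and 10.10 in mutants, against 9.11, 8.84 and 9.11 in controls. Every mutant lay above every control, and the difference was 0.74 (SE 0.20; adjusted p = 0.943), or 0.75 without mutant replicate 1. Cth, which makes the cysteine used for glutathione, read 10.56, 11.44 and 11.30 in mutants, against 11.57, 11.77 and 12.09 in controls (difference -0.71, SE 0.26; adjusted p = 0.943), and the difference was -0.44 without mutant replicate 1. Chac2, which breaks glutathione down, differed by -0.49 (SE 0.30) and Oplah, which recycles oxoproline, by 0.36 (SE 0.23). Without mutant replicate 1 these were -0.13 for Chac2 and 0.23 for Oplah.

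Of 11 measured genes of the NRF2 arm, 5 had a higher mean in mutants and 6 a lower one (median -0.03), and none passed in limma, where 0 had an unadjusted p below 0.05. Nfe2l2 itself differed by -0.30 (SE 0.19) and the carbonyl reductase Cbr3 by 0.06 (SE 0.15), which was 0.15 without mutant replicate 1. The quinone reductase Nqo1, a standard target of NRF2, read 4.97, 6.27 and 6.81 in mutants, against 6.21, 5.97 and 6.65 in controls. Mutant replicate 1 was thus lowest, as in Gstm6, Gstm3 and Gstm2. The haem oxygenase Hmox1, another target, was highest in that liver, at 8.63, 6.63 and 7.20 in mutants against 6.91, 7.23 and 7.59 in controls. The difference of Nqo1 was -0.26 (SE 0.43) and that of Hmox1 0.24 (SE 0.46), and both changed direction without mutant replicate 1, to 0.27 for Nqo1 and -0.33 for Hmox1. Of the 11 genes, 6 were lowest in mutant replicate 1 and 2 were highest there. Across all genes, 32.8% were lowest there. Averaged over the 11, the mutants stood at -0.30, -0.03 and 0.22 from the control mean.

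In the CAR and PXR arm 9 of 11 measured genes had a lower mean in mutants and 2 a higher one (median -0.25), with 0 past the threshold in limma. An unadjusted p below 0.05 was found for 2 of them. These were Cyp2c55, with a difference of -1.56 (SE 0.48), and Cyp2c37, with -1.69 (SE 0.55; adjusted p = 0.943 for both). Cyp2b10, the usual marker of CAR activity, read 7.41, 6.40 and 7.84 in mutants, against 6.63, 10.15 and 10.77 in controls. Control replicate 1 thus lay among the mutants, far from the other 2 controls (difference -1.97, SE 0.96). Cyp3a11, a PXR target, differed by -0.36 (SE 0.20). Without mutant replicate 1 the differences were -1.45 for Cyp2c55, -1.51 for Cyp2c37, -2.07 for Cyp2b10 and -0.40 for Cyp3a11.

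**Figure D5:**
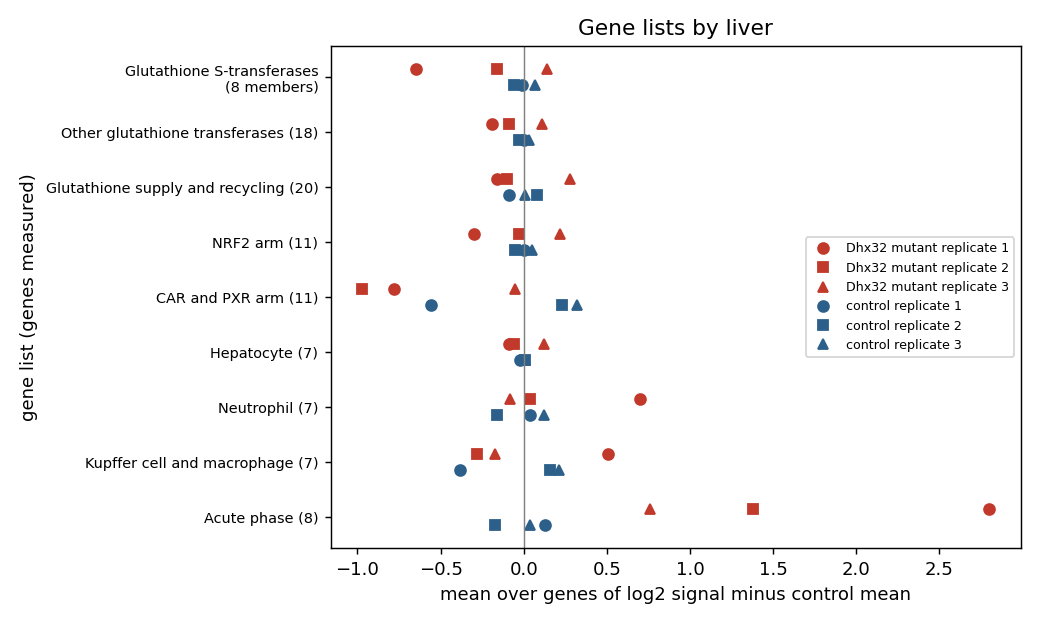
Mean over the measured genes of each list of log2 signal minus the control mean, with Dhx32 mutants (red, upper points) above controls (blue, lower points) and shapes for replicates. For the 8 transferases mutant replicate 1 lies at -0.65, and the same liver lies at 2.80 for the acute phase list.

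The mean of the 8 members read 10.33, 10.82 and 11.12 in mutants, against 10.97, 10.92 and 11.05 in controls. Of 4658 other genes with an SD of 0.3 or more over the 6 arrays, those most like this mean by Pearson correlation over the 6 arrays were Tmem59 (r = 0.997), Galm (r = 0.996), Cops2 (r = 0.992), Bbox1 (r = 0.991) and Grsf1 (r = 0.991). These are descriptions over 6 arrays that share the outlying mutant replicate 1.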

How the data were processed

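The authors deposited log2 signals of 204531 probe sets from 6 arrays. Per the submitters' processing notes, Affymetrix Expression Console 1.1, RMA, Partek 6.4 and the build mm9 were used, with no role stated for each. RMA, as generally used, subtracts background and normalizes arrays by quantiles, which compresses differences of dim probe sets. Symbols came from the platform annotation and were updated through unique RefSeq synonyms. Probe sets with a group mean of 3 or more were kept. Gene values averaged at least 2 kept probe sets. Groups were compared with limma 3.58.1 in R 4.3.3 (lmFit and eBayes, diffSplice for exon usage), mutant minus control, adjusted by Benjamini-Hochberg over all genes or probe sets, with a threshold of 0.05. Intervals are limma's 95% intervals. The steps were tested on simulated data.

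The members and lists were chosen with earlier results of these data known. All members were described, and from each related list the 4 genes of smallest p were named. Other genes were named where a value was set beside a result. The 3 arrays per group limit the precision, and the labels give only the sex, age and genotype of the mice. Whether replicate numbers pair the mice is not stated. Deviations of same-numbered arrays from their group means correlated at 0.10, -0.11 and 0.18 over genes. With 3 arrays per group these values cannot decide it. Alternatives were other signal minimums, scalings and summaries, array weights, an intensity trend, a replicate block and leaving out each array.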

Additional observations from a re-analysis of the deposited data

How the results depend on the processing

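In every setting run 0 members passed, as genes, probe sets or in exon usage. Outside the fits that left out an array, the 9 alternatives gave 6 to 7 of 8 members with a lower mean and medians of -0.24 to -0.13, and no member changed direction except Gstp1 with array weights (-0.03). Median centring moved the median of all genes by 0.05. With each array left out, medians over the members ran from -0.51 to -0.03, members with a lower mean from 5 to 7, and lower probe sets from 27 to 55 of 62. Differences then ran from -0.53 to 0.23 for Gstm2, -0.64 to 0.25 for Gstm3, -0.18 to 0.28 for Gstp1 and -0.05 to 0.19 for Gstt1, each changing direction, whereas Gsta3 (-0.48 to -0.12), Gsta4 (-0.69 to -0.37), Gstm1 (-0.30 to -0.03) and Gstm6 (-0.77 to -0.03) did not. Gstm2, Gstm3 and Gstp1 turned without mutant replicate 1 (0.23, 0.25 and -0.18), Gstp1 without control replicate 2 (-0.02) and Gstt1 without mutant replicate 3 (-0.05). The cause was not tested. The adjusted p of Gsta4 was 0.544 or more in all of these settings. The replicate block gave 0 members past the threshold, with 6 of 8 lower and a median of -0.24, and across all genes 0 calls against 1 in the unpaired fit. Across all genes the exon usage count was 18 with the replicate block, 130 with the Simes test and 30 with the F-test.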

Other observations

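The probe sets of Gstt1 did not place mutant replicates 2 and 3 in the same order, a split chosen after the values were seen. In 6 of the 10 kept probe sets mutant replicate 3 minus mutant replicate 2 was 0.20 to 0.81, and in the other 4 it was -0.64 to -0.21. Probe set 5590790 is of the first kind, at 9.42, 9.99 and 10.76 in mutants and 9.76, 10.21 and 10.08 in controls. Probe set 5315199 is of the other kind, at 10.80, 11.05 and 10.40 in mutants and 11.01, 10.39 and 10.27 in controls. The positions of these probe sets in the gene were not analysed here. One Gstm3 probe set, 4799436, had the widest range of the family, at 2.83, 7.94 and 6.71 in mutants and 7.87, 6.21 and 6.45 in controls.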
